A study of Mus musculus with 24 samples.

Results

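Stem cell derived astrocytes, called AGES, were set against astrocytes sorted from the adult mouse brain and not cultured, called AdAC direct, by RNA-seq counts of 4 libraries in each group and across all genes outside chromosomes X and Y. These were 45231 of the 49671 genes counted in the series, with 4181 genes on X or Y and 259 genes without a position in the annotation left out, and 18941 of them had enough counts to be tested. AGES came from an embryonic stem cell line of C57BL/6N mice (GSC-5003), which was first turned into neural stem cells (NSCs), kept to passages 50 to 60 with FGF and EGF, and then given 20 ng/ml BMP4 for 3 to 5 days. They descend from that 1 line, and the replicates were separate cultures from different passages. AdAC direct came from C57BL/6J mice aged 100 to 140 days, with males and females mixed, and each replicate pooled 2 mice. The brains, without olfactory bulb and cerebellum, were dissociated with enzymes at a warm temperature, freed of debris and red blood cells, sorted with magnetic beads against ACSA-2, a surface antigen of astrocytes, and frozen without culture. No gene was altered in either group. Substrain, age, culture, the line, the BMP4 and the dissociation all differ between the groups, so their parts in any difference given here cannot be told apart.

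Astrocytes clear glutamate, GABA and potassium from the space around synapses, pass lactate and lipids to neurons, and are joined to each other by gap junctions. Stem cell protocols often make them with BMP4, whose receptors phosphorylate SMAD proteins that raise the Id genes and Gfap, the gene of the intermediate filament by which astrocytes are stained. In the healthy adult cortex most astrocytes hold little GFAP, while astrocytes in culture or near an injury hold much.

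Library totals were 28114306 to 36911160 counts in AGES and 27904126 to 35440406 in AdAC direct, with 20951 to 21697 and 24084 to 24550 genes detected. At these depths 3 counts per library, taken as the floor, equal 0.0997 and 0.0932 CPM (counts scaled to a fixed library total) in the mean of AGES and of AdAC direct, a limit for counting error alone. CPM are scaled by TMM throughout, and values of libraries are given in the order of replicates 1 to 4.

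Before the comparison, the labels were set against marker genes of brain cell types. The 20 astrocyte markers summed to 58800 to 63400 CPM in AGES and to 21700 to 22600 CPM in AdAC direct, but in AGES most of this was Gfap. By the test given below, 14 of the 20 were lower in AGES, 3 higher and 3 not called, with a median log2 fold change of -2.46. Of all genes tested, 45.0% were lower and 35.5% higher. Some defining markers were low in AGES, with a mean of 0.23 CPM for Gjb6 and 15 CPM for Aldh1l1, the folate enzyme used as a pan-astrocyte marker, which stood at 273 CPM in AdAC direct. AdAC direct held genes of other cells. The 12 oligodendrocyte markers summed to 17400 to 18100 CPM there and to 208 to 379 CPM in AGES, where 1 of them, Plekhb1, made up most of the sum. Mbp, the myelin basic protein, was at 4655, 4694, 4762 and 4105 CPM in AdAC direct and between 3.80 and 6.75 CPM in AGES. The 8 ependymal markers summed to 1290 to 1480 CPM in AdAC direct against 56.9 to 85.1 in AGES, the 10 mural and fibroblast markers to 443 to 474 against 2.00 to 4.18, and the 9 endothelial markers to 104 to 109 against 1.09 to 1.51. The choroid plexus and erythroid markers varied most among the AdAC direct libraries, at 79.1 to 276 CPM, with Ttr, a choroid plexus gene, at 162, 52.9, 73.0 and 239 CPM. Microglia markers summed to 88.3 to 93.4 CPM in AGES and 67.3 to 75.2 in AdAC direct, but defining genes were at or near 0 in AGES, where C1qb had no count in any library and Cx3cr1 had a count in 1 of them. Neuron markers summed to 162 to 178 CPM in AGES and 89.3 to 96.9 in AdAC direct. Of the 11 tested, 8 were lower in AGES and 2 higher. Oligodendrocyte precursor markers summed to 47.5 to 69.2 CPM in AGES and 386 to 512 in AdAC direct, with 3 higher and 3 lower of 7 tested. Of the pluripotency genes, Pou5f1 was at 0 in 7 of the 8 libraries, and 5 of the 8 markers were too low to test. In bulk samples, fewer cells of a type and less RNA per cell cannot be told apart.

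**Figure D1:**
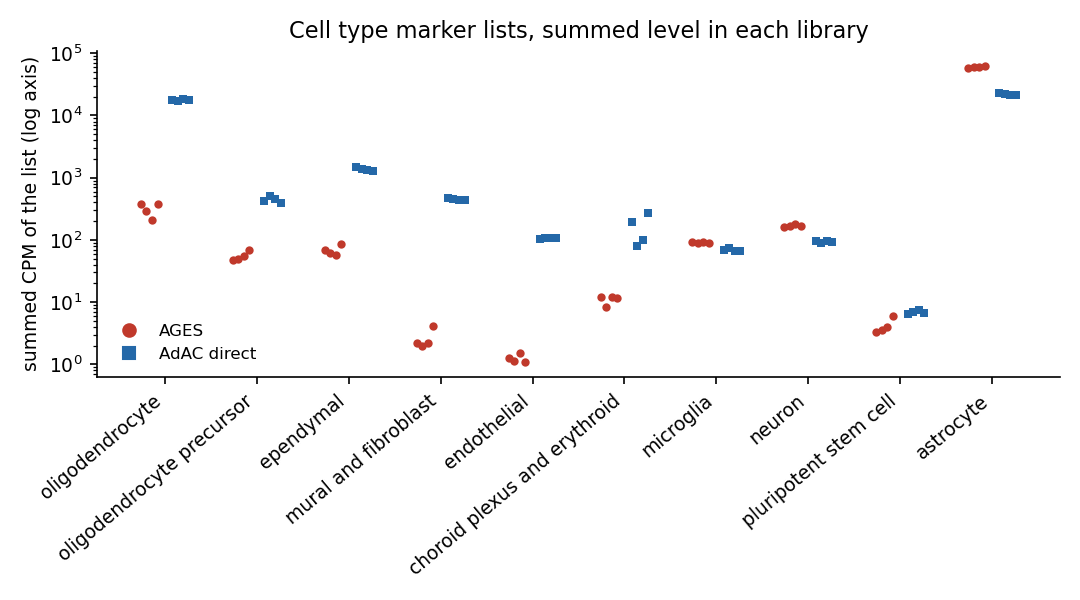
Summed CPM (log axis) of 10 lists of cell type markers in each of the 4 AGES (circles) and 4 AdAC direct (squares) libraries. The oligodendrocyte list reaches 17400 to 18100 CPM in AdAC direct against 208 to 379 in AGES. The sum of the astrocyte list is higher in AGES, at 58800 to 63400 CPM, most of it Gfap, although 14 of its 20 genes were lower there.

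Of the 18941 genes tested, 6722 were higher in AGES (35.5%) and 8514 were lower (45.0%), by edgeR's quasi-likelihood test with an adjusted p under 0.05, which makes 15236 genes in either direction (80.4%), and the 4 and 4 libraries did not overlap for 14538 genes (76.8%). Being called was thus the rule and not the exception, and every count of a gene list below has to be read against these shares. The median log2 fold change, AGES over AdAC direct, was -0.18, with quartiles at -2.02 and 0.73. The lower side reached further: 2467 genes were lower by more than 5 on the log2 scale and 270 were higher by as much. At least 10 CPM in AdAC direct with AGES at the floor was found for 269 genes, and the opposite for 27 genes. A gene also passed the filter when it was high in only 1 group, so counts over tested members do not describe all members of a list. With a further threshold of 1 on the log2 fold change, 3544 genes were higher and 6394 lower.

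**Figure D2:**
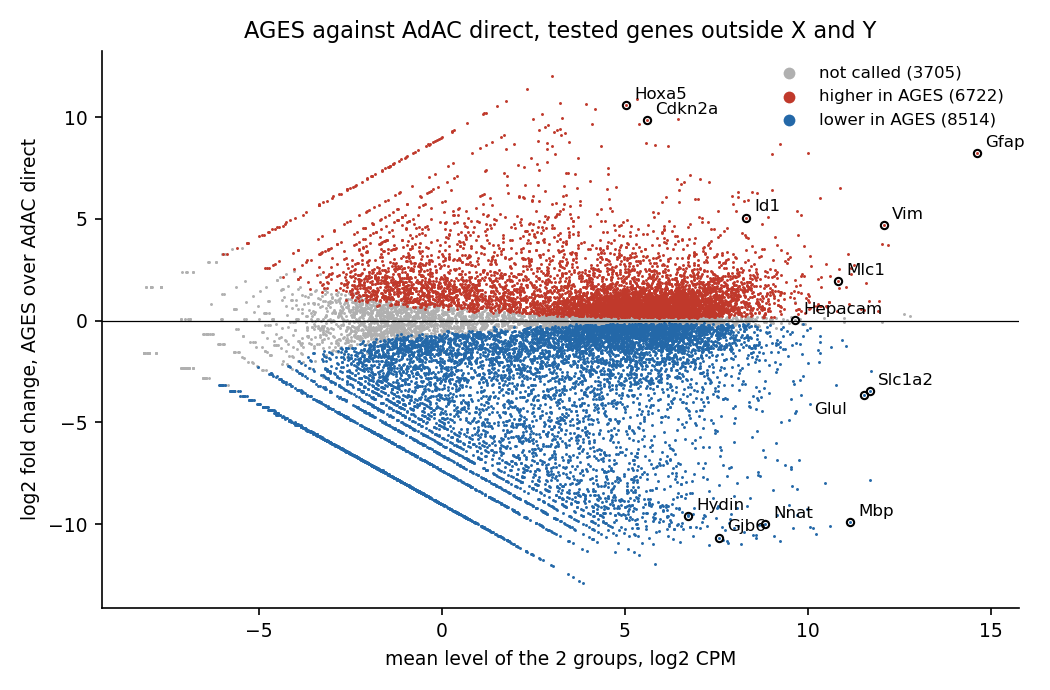
The mean level of both groups (log2 CPM) against the log2 fold change, AGES over AdAC direct, for the 18941 tested genes, coloured by the edgeR call, with named genes circled. Genes with few or no counts in a group lie on the straight lines at the edges, where the fold change depends on the fit. Gfap is the gene with the highest level, and more genes lie far below 0 than far above it.

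Gfap had the largest difference in CPM of all genes. It stood at 48350, 50240, 50490 and 52940 CPM in AGES and at 171, 175, 162 and 161 CPM in AdAC direct, a log2 fold change of 8.24 (SE 0.19, edgeR adjusted p = 2.07e-22). Per length, as TPM (a share of transcripts), it was also first in AGES, with 39020 ± 1364 TPM (SD, n = 4) against 159 ± 5.9 in AdAC direct. Vim, the filament partner of Gfap, was at 7016, 5816, 9873 and 10530 CPM in AGES and at 312 to 348 CPM in AdAC direct (log2 4.68, SE 0.16). Nes, the filament gene of neural stem cells, was at 657 ± 162 CPM against 52.2 ± 3.0. The groups overlapped for none of these genes. Of the 11 intermediate filament genes, 4 were higher and 7 lower in AGES. Krt8, a keratin of epithelia, was among the lower ones, with 13.7 to 16.0 CPM in AdAC direct and at most 0.064 CPM in AGES.

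Genes with the next largest differences in CPM on the higher side included Sparc, Vim, Pea15a, Fn1, Ncan, Eef1a1, Prdx6 and Dbi. Sparc, a matricellular protein secreted by glia, was at 8704 ± 1719 CPM in AGES and 667 ± 99 in AdAC direct. Pea15a, a phosphoprotein abundant in astrocytes, was at 7810 ± 1642 against 584 ± 14 CPM. Dbi, a carrier of acyl-CoA, was at 3859 ± 121 against 793 ± 73 CPM, and at 8842 TPM in AGES. The lower side included Slc1a2, Glul, Apoe, Mbp, Cnp, Aplp1, Clu, Mag and Mal, of which Mbp, Cnp, Mag and Mal are myelin genes. By TPM, Apoe (10860 ± 1460) and Glul (6667 ± 102) were the third and the fifth highest in AdAC direct. The mitochondrial gene mt-Co1 was near the top of both groups, at 14630 ± 1813 TPM in AGES and 14600 ± 4059 in AdAC direct. Gm23935 and Mir6236, short non-coding loci, were also among the 15 genes highest by TPM in AGES. Gm23935 was among the 15 highest in AdAC direct too, at 9998 ± 3059 TPM, beside 25960 ± 7274 in AGES.

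Genes for the uptake and recycling of glutamate were mostly lower in AGES: 9 of 13 were lower and 3 higher, with a median log2 fold change of -1.23 beside -0.18 over all genes tested. Slc1a2, the main glutamate transporter GLT-1, was at 486, 388, 621 and 692 CPM in AGES and at 6068, 6106, 5958 and 6277 CPM in AdAC direct (log2 -3.48, SE 0.19, edgeR adjusted p = 5.8e-15). Slc1a3, the transporter GLAST of younger and of cerebellar astrocytes, was closer, at 958 to 1517 CPM against 2905 to 3036 CPM (log2 -1.23, SE 0.13). Glul, which turns glutamate into glutamine, was at 390 to 468 CPM against 5405 to 5603 CPM (log2 -3.68, SE 0.13). Slc7a11, which exports glutamate in exchange for cystine, was at 0.94, 0.90, 1.60 and 1.91 CPM in AGES and at 154 to 203 CPM in AdAC direct. No AGES library reached an AdAC direct library for these 4 genes. Slc38a1, a glutamine transporter known better from neurons, was the member with the largest rise, at 746 ± 182 against 307 ± 28 CPM.

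Connexins were among the genes with the largest drops. Gja1 (connexin 43), which makes most astrocyte gap junctions, was at 20.4, 11.8, 3.69 and 5.40 CPM in AGES and at 1442 to 1538 CPM in AdAC direct (log2 -7.19, SE 0.36). Gjb6 (connexin 30), a connexin of mature astrocytes, was at 0.19 to 0.26 CPM in AGES and at 446, 342, 351 and 385 CPM in AdAC direct (log2 -10.67, SE 0.29, edgeR adjusted p = 2.17e-20). Of the 11 genes for ion pumps, cotransporters and gap junctions, 9 were lower, 2 were higher, and the median was -3.12. Atp1b2, the beta subunit of the sodium pump in glia, was at 911 ± 121 CPM against 2235 ± 99 (log2 -1.30). Slc1a2, Glul, Pea15a, Fn1, Cnp, Gabrb1, Ctsb, Id4, Hydin, Otx2 and Emx2 are among the genes named with an annotated gene on the opposite strand. The counting options that were named include none for strand, so the values of such genes are uncertain.

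Among genes of the perivascular endfoot the calls went both ways, with 5 higher, 5 lower and 3 not called. Kcnj10, the potassium channel Kir4.1, was at 20.3, 14.2, 9.16 and 24.5 CPM in AGES and at 1047 to 1148 CPM in AdAC direct (log2 -6.03, SE 0.27). Aqp4, the water channel of the endfoot, was at 273, 156, 235 and 315 CPM against 539 to 691 CPM (log2 -1.29, SE 0.21, edgeR adjusted p = 4.73e-06). Mlc1, the membrane protein of which loss gives a leukodystrophy, was higher, at 2767 to 2983 CPM against 707 to 784 CPM (log2 1.93, SE 0.10). Hepacam (GlialCAM), which carries MLC1 to cell junctions, was at 909, 921, 750 and 630 CPM in AGES and 819, 832, 795 and 734 CPM in AdAC direct, with overlapping groups and no call (log2 0.01, SE 0.12, edgeR adjusted p = 0.928). Utrn, which ties the endfoot membrane to laminin, had the largest rise of the list, at 408 ± 50 against 79.7 ± 0.9 CPM. The list median of 0.01 turned to -0.03 with DESeq2's size factors and to -0.13 with scaling by library size, so no direction is given for the list.

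**Figure D3:**
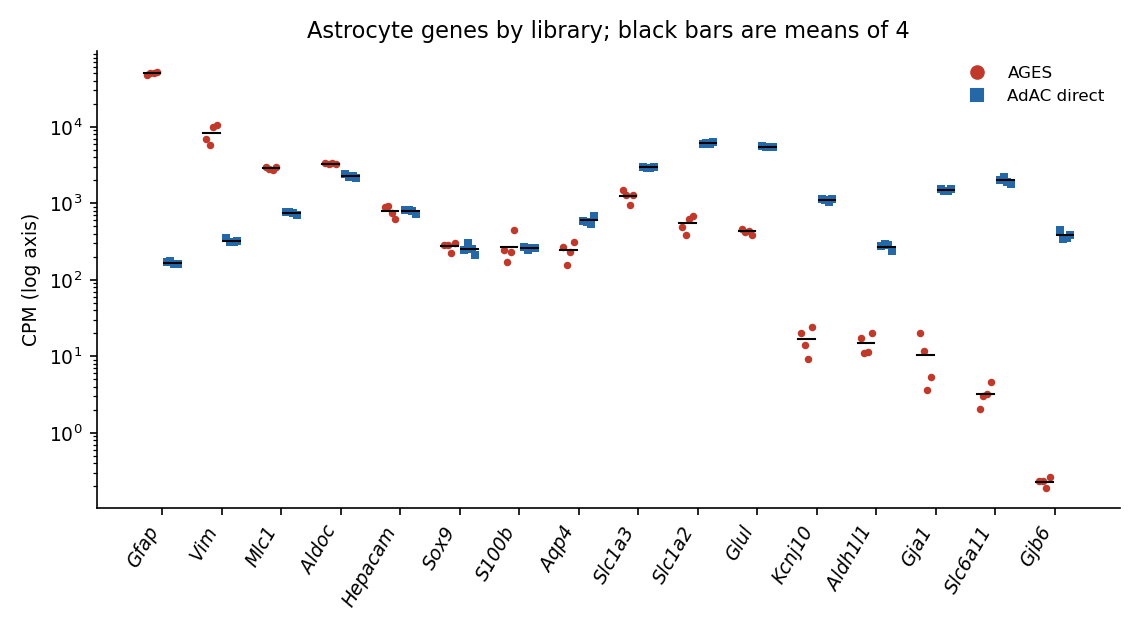
CPM (log axis) of 16 astrocyte genes in each AGES (circles) and AdAC direct (squares) library, with black bars for the means of 4. Gfap, Vim and Mlc1 are higher in AGES, Hepacam, Sox9 and S100b overlap, and the genes on the right are lower, down to 0.23 CPM for Gjb6 in AGES.

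GABA handling followed the glutamate genes, with 10 of 11 lower and a median of -2.86. Slc6a11, the astrocyte GABA transporter GAT-3, was at 2.03, 3.05, 3.20 and 4.67 CPM in AGES and at 2051, 2245, 1910 and 1772 CPM in AdAC direct (log2 -9.26, SE 0.24, edgeR adjusted p = 1.2e-21). Gabrb1, a subunit of the GABA-A receptor, was at 0.22 to 0.35 CPM against 195 to 232 CPM. Abat, which breaks GABA down, was the only member called higher (460 ± 35 against 357 ± 16 CPM, log2 0.36, edgeR adjusted p = 0.0169), and it was not called with scaling by library size or without AGES replicate 1.

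Receptors and calcium stores gave 7 higher, 13 lower and 2 not called of 22. P2ry1, a purine receptor by which astrocytes respond to ATP, was at 114, 151, 99.6 and 75.8 CPM in AGES and at 5.56 to 7.39 CPM in AdAC direct (log2 4.07, SE 0.17). Grm3, the metabotropic glutamate receptor of adult astrocytes, was at 1.68 to 3.19 CPM in AGES and at 283 to 311 CPM in AdAC direct (log2 -7.01, SE 0.17). Adra1a, an adrenergic receptor, was at 16.2 to 18.9 CPM in AdAC direct and at or under 0.058 CPM in AGES. Itpr2, the main calcium release channel of astrocytes, was at 22.9 ± 2.2 CPM against 93.7 ± 1.5, and Ednrb, an endothelin receptor, at 22.6 to 91.6 CPM against 238 to 279 CPM. The groups did not overlap for these 5 genes.

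Some genes were not called, among them Sox9 and S100b of the 20 astrocyte markers and Sparcl1 and Cst3 of other lists. Of those 20 markers, 14 were lower in AGES, 3 higher and 3 not called. Sox9, a transcription factor of astrocyte identity, was at 283, 288, 225 and 301 CPM in AGES and at 247, 302, 255 and 215 CPM in AdAC direct (log2 0.11, SE 0.12, edgeR adjusted p = 0.403). S100b, a calcium-binding protein, was at 244, 170, 228 and 444 CPM against 243 to 272 CPM (edgeR adjusted p = 0.77), Sparcl1 at 2950 to 4594 against 3921 to 4749 CPM (0.586), and Cst3 at 1403 to 2343 against 1871 to 2326 CPM (0.595). For each of these genes the groups overlapped, and a p that misses the threshold does not show that the levels are alike. Aldoc, a glycolytic enzyme and astrocyte marker, was called higher, at 3309 ± 67 against 2260 ± 122 CPM (log2 0.55, SE 0.14). Of 11 transcription factors of astrocytes, 2 were higher, 5 lower and 4 not called. Nfia, which starts astrocyte formation, was at 203 to 247 against 92.7 to 102 CPM (log2 1.22, SE 0.08), whereas Rorb, a factor of mature astrocytes, was at 10.1 ± 1.4 against 62.3 ± 2.4 CPM. Prdm16 was at 47.3 to 58.1 CPM in AdAC direct and at 0 to 0.20 CPM in AGES.

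Secreted synapse factors and phagocytic genes were divided. Of 14 synapse factors 8 were higher and 4 lower, with Gpc5, a glypican, at 0.096 to 0.26 CPM against 110 to 116 CPM, and Bdnf, the neurotrophin, at 18.8 to 28.5 CPM against 1.04 to 1.37 CPM. Of 13 genes for phagocytic receptors and their bridging proteins 8 were lower. Mertk and Megf10, the receptors by which astrocytes engulf synapses, were at 30.7 to 46.3 against 270 to 319 CPM (log2 -3.02, SE 0.11) and at 44.1 to 69.8 against 260 to 304 CPM (log2 -2.31, SE 0.22). Gas6, a ligand of MERTK and AXL, was at 1.07 to 1.61 against 286 to 330 CPM. Axl was higher, at 334 to 380 against 137 to 159 CPM (log2 1.31, SE 0.11), so that the receptors of this family did not move together.

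Among genes for glycolysis, lactate and glycogen the largest rise was at Ldha, which makes lactate from pyruvate. It was at 1395, 1323, 1888 and 1837 CPM in AGES and at 88.3, 94.9, 82.5 and 79.9 CPM in AdAC direct (log2 4.22, SE 0.19, edgeR adjusted p = 1.63e-16). Of 25 genes for glycolysis, lactate and glycogen 14 were higher and 7 lower. Pfkfb3, an activator of glycolysis, was at 243 ± 21 against 78.2 ± 6.6 CPM. Hk2, a hexokinase, differed among the cultures, with 3.82 and 4.50 CPM in AGES replicates 1 and 2 and 15.1 and 16.2 CPM in replicates 3 and 4, beside 3.30 to 4.97 CPM in AdAC direct, so the groups overlapped although the gene was called higher (log2 1.28, edgeR adjusted p = 0.00165). It was not called with a replicate block. Slc16a3, a lactate exporter, was at 0 in all AGES libraries and at 3.69 to 4.03 CPM in AdAC direct, at least 38.6-fold lower when AGES is set to the floor of 3 counts per library.

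Lipid carriers and fatty acid oxidation had 15 of 18 genes lower (median -1.76). Apoe, the main lipoprotein of the brain, was at 1050, 1019, 1187 and 837 CPM in AGES and at 5723, 6679, 5974 and 4758 CPM in AdAC direct (log2 -2.50, SE 0.20). Clu, another lipoprotein, was at 284 to 397 against 2744 to 3374 CPM, and Apod, known also from oligodendrocytes, at 0.45 to 0.95 against 1056 to 1316 CPM. Fabp7, the fatty acid binding protein of radial glia, was higher, at 260 to 466 against 70.9 to 103 CPM (log2 2.18, SE 0.21). For cholesterol synthesis and uptake 7 were higher, 9 lower and 6 not called. Hsd17b7, an enzyme late in the pathway, had the largest rise, at 106 to 196 against 19.9 to 22 CPM (log2 2.78, SE 0.15). Hmgcs1, an early enzyme, was at 568 to 833 against 198 to 243 CPM and Sqle, a later one, at 356 to 390 against 117 to 136 CPM.

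Genes of the ribosome were nearly all higher in AGES. Of the 74 tested genes for cytosolic ribosomal proteins, 72 were higher and 2 lower, and the median log2 fold change of 1.51 had narrow quartiles of 1.25 and 1.77. Their sum was 21000 to 23900 CPM in AGES and 7450 to 8320 CPM in AdAC direct, with a mean of 49500 CPM in NSCs. Rps28 had the largest rise, at 202 to 219 against 33.7 to 47.9 CPM, and the lower members were Rpl29 (30.5 ± 1.5 against 58.7 ± 5.0 CPM) and Rpl3l, a gene of muscle at or under 1.53 CPM. Ribosomal genes share sequence with many processed copies, so single values are uncertain. Eef1a1, the elongation factor that brings tRNA to the ribosome, was at 4848 ± 326 against 1370 ± 50 CPM. Of 37 proteasome subunits 29 were higher, 7 of them past a log2 fold change of 1, 5 were lower and 3 not called, with Psmd5, an assembly chaperone, at 131 to 171 against 31.9 to 33.1 CPM.

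The respiratory chain was higher in its nuclear genes, with 57 of 78 higher, 8 lower and a median of 0.57, and 16 were higher past a log2 fold change of 1. Cox8b, a muscle isoform, had the largest rise, at 5.13 to 12.7 against 0.059 to 0.20 CPM, and Cox6b2, a testis isoform, the largest drop, at 0.033 to 0.16 against 10.2 to 15.4 CPM. Of the 13 genes encoded in mitochondria 6 were called higher and none lower. AdAC direct replicate 4 held more of them than the other 3 libraries, with mt-Nd1 at 883, 725, 834 and 1239 CPM beside 1400 to 1773 in AGES. For mt-Co1 the groups overlapped (6307 to 8186 against 4300 to 7861 CPM, edgeR adjusted p = 0.184), and the gene was called higher without that library (log2 0.53). mt-Nd5 lies opposite mt-Nd6, so its rise (3011 to 3652 against 844 to 1364 CPM) is uncertain if strand was not used.

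Metallothioneins and antioxidant genes were higher for 10 of 16. Mt1 and Mt3, which bind zinc and copper, were at 2140 to 2926 against 456 to 646 CPM (log2 2.20, SE 0.13) and at 1704 to 2666 against 404 to 536 CPM (log2 2.13, SE 0.16). Prdx6, a peroxiredoxin abundant in astrocytes, was at 3282 to 4555 against 653 to 678 CPM (log2 2.58, SE 0.13), and Hmox1, which breaks down heme, at 125 to 218 against 8.73 to 9.42 CPM. Gstm5, a glutathione transferase, was lower, at 19.4 to 21.2 against 265 to 321 CPM. Of 18 genes for amino acid stress and serine synthesis 11 were higher and 7 lower. Asns, the asparagine synthetase, was at 28.3, 25.4, 28.2 and 44.7 CPM in AGES and 1.82 to 2.79 CPM in AdAC direct (log2 3.69, SE 0.29). Atf4, the factor that raises it, was at 142 ± 18 against 101 ± 6 CPM, and Ddit3, a stress factor of the same pathway, was lower, at 12.6 ± 1.9 against 24.3 ± 2.7 CPM.

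Lysosomal genes were higher for 11 of 16 (median 0.94). Ctsb, a cathepsin, was at 2127, 1766, 3966 and 4806 CPM in AGES and at 547 to 561 CPM in AdAC direct (log2 2.51, SE 0.20), and Ctsd at 644 to 1023 against 283 to 305 CPM. Ctsz, another cathepsin, was at 0.12 to 0.27 CPM in AGES and at 85.9 to 95.3 CPM in AdAC direct (log2 -8.78, SE 0.16). Members of the same enzyme family thus lay far apart in opposite directions.

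RNA of genes used in cell division was low in both groups beside NSCs. Mki67, present in cycling cells, was at 0.66, 0.93, 1.31 and 1.02 CPM in AGES and at 3.80, 3.52, 4.28 and 4.94 CPM in AdAC direct (log2 -2.06, SE 0.22, edgeR adjusted p = 5.1e-09), with a mean of 958 CPM in the NSCs from which AGES were made. The 35 genes for DNA replication and mitosis summed to 233 to 252 CPM in AGES, 259 to 284 CPM in AdAC direct and a mean of 8210 CPM in NSCs. In AGES 17 were lower, 8 higher and 10 not called, beside 45.0% lower and 35.5% higher of all genes tested. The median log2 fold change of the list was -0.28, beside -0.18 over all genes tested. Kif11, a motor of the spindle, was at 1.45 to 2.12 against 15.4 to 21.9 CPM. Cdk1, the kinase of mitotic entry, had the largest rise of the list, at 6.12 to 8.15 against 0.67 to 0.86 CPM (log2 3.09, SE 0.19). Ccnb1, its cyclin, was called lower at 0.48 to 0.59 against 0.60 to 1.24 CPM (edgeR adjusted p = 0.0252), a call lost with a replicate block and without AGES replicate 3 or AdAC direct replicate 3 or 4.

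Cell cycle inhibitors and D cyclins were higher for 7 of 10, lower for 1 and not called for 2. The lower gene was the inhibitor Cdkn1c, with a log2 fold change of -8.43. Cdkn2a, whose products p16 and p19ARF hold cells out of the cycle, was at 90.5, 96.2, 106 and 95 CPM in AGES and at 0.11, 0.062, 0.089 and 0.14 CPM in AdAC direct (log2 9.86, SE 0.22, edgeR adjusted p = 1.74e-22), and NSCs already held a mean of 57.2 CPM. Cdkn1a (p21) was not called, at 11.8 to 26.9 against 16.6 to 23 CPM. Ccnd2, a D cyclin, was at 582 to 1106 against 67.0 to 71.3 CPM (log2 3.52, SE 0.19). Ccnd1 varied among the cultures, at 34.3, 21.8, 70.2 and 111 CPM, and was at 12.2 to 14.8 CPM in AdAC direct.

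Of 21 tested neural progenitor genes 12 were higher and 7 lower. Igf2bp2, an RNA-binding protein of fetal progenitors, was at 13.2 to 18.6 against 1.84 to 2.7 CPM, and Hmga2, a chromatin protein of fetal stem cells, at 5.37 to 8.33 CPM against at most 0.062 CPM. Tnc, a matrix protein of the stem cell niche, was at 767 to 1435 against 11.1 to 12.5 CPM (log2 6.42, SE 0.29). Sox1, a factor of early neural cells, went the other way, at 0.29 to 0.64 CPM against 90.7 to 105 CPM, and so did Olig2, a factor of oligodendrocyte precursors, at 38.1 to 49.6 against 165 to 197 CPM. Sox2 was higher by little (220 ± 36 against 172 ± 21 CPM, log2 0.35, edgeR adjusted p = 0.00547), and not called with scaling by library size.

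The BMP pathway was described by its ligands, receptors, SMADs, inhibitors and targets. The ligand Bmp4 was at 0 in all AGES libraries, which had received the protein in the medium, and at 0.73 to 1.35 CPM in AdAC direct. Bmpr1a, a type I receptor, was at 549, 598, 630 and 550 CPM against 66.3 to 86.3 CPM (log2 2.97, SE 0.13), Bmpr2, the type II receptor, at 243 to 288 against 70.2 to 86.9 CPM (log2 1.83, SE 0.09), and Bmpr1b was not called (91.2 ± 23.2 against 84.0 ± 3.9 CPM). Smad6, an inhibitor that the pathway itself raises, was at 25.9, 39.8, 32.7 and 21.3 CPM in AGES and 5.04 to 6.27 CPM in AdAC direct (log2 2.36, SE 0.22), whereas Smad7 was not called. The Id genes, the best known targets, did not move together. Id1 was at 522, 612, 678 and 650 CPM against 17.3 to 20.8 CPM (log2 5.06, SE 0.19, edgeR adjusted p = 4.63e-18), Id3 at 962 to 1130 against 67.3 to 96.7 CPM (log2 3.72, SE 0.16), and Id2 at 405 to 519 against 164 to 174 CPM (log2 1.47, SE 0.15). Id4 was at 11.4, 18.9, 11.3 and 4.31 CPM in AGES and at 180 to 201 CPM in AdAC direct (log2 -4.06, SE 0.26). In NSCs the means were 17.5 CPM for Id1, 151 for Id3, 22.7 for Id2 and 0.22 for Id4, so each was higher in mean in AGES than in NSCs. Of the 24 genes of the pathway 11 were higher, 7 lower and 6 not called. The list median of 0.08 turned to -0.06 with scaling by library size.

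The letters GGCGCC, which SMAD proteins bind in some BMP-responsive genes, were searched in RefSeq promoters of build GRCm38.p6, 250 bases before to 50 after the start of each gene. The word reads the same on both strands. It occurred in 13.7% of 25748 genes outside chromosomes X, Y and 18, and in 7 of the 16 BMP pathway genes with a promoter in the table (43.8%). The shares were 6 of 32 for motile cilium genes (18.8%) and 5 of 22 for Hox genes (22.7%). The 3 BMP pathway members that were higher in AGES and held the letters before the start site are shown. They are a receptor pair and a target of the same pathway. Each stretch is 60 bases read in the direction of the gene, with the match in capitals.
Bmpr1a (chr14:34502712-34502771, minus strand): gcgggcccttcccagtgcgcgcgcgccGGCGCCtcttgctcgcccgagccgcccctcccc
Bmpr2 (chr1:59764147-59764206, plus strand): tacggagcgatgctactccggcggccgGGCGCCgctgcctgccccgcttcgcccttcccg
Id2 (chr12:25096283-25096342, minus strand): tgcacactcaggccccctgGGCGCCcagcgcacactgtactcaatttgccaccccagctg
The matches began 198, 105 and 231 bases before the start site. They are matches of letters in a GC-rich setting and were not tested for binding.

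Hox genes, which give position along the body axis and are silent in the forebrain, were present in AGES and nearly absent from AdAC direct. The 39 genes summed to 196 to 216 CPM in AGES and to 1.21 to 1.89 CPM in AdAC direct, with a mean of 225 CPM in NSCs. Of the 39, 23 were too low in all groups to be tested, and of the 16 tested 15 were higher and 1, Hoxd1, was lower. The 15 passed the filter through AGES and NSCs, where they are higher, and Hoxd1 through AdAC direct, so the count had to follow those groups and is given as a description. Hoxa5 was at 64.2, 69.4, 64.6 and 61.8 CPM in AGES and at most 0.062 CPM in AdAC direct. Hoxa2 was at 31 to 42.2 CPM, Hoxa3 at 17.2 to 19.7 CPM and Hoxb4 at 10.8 to 11.4 CPM in AGES, each with a few single counts in AdAC direct. Hoxb3 (14.6 to 17.2 CPM in AGES) and Hoxb2 (9.25 to 10.8 CPM) had no count in AdAC direct, which makes them at least 170.5-fold and 108-fold higher at the floor of 3 counts per library. The median log2 fold change of the tested Hox genes was 8.73 in the fit and 5.79 with genes at the floor set to their bound. The levels were similar among the 4 cultures. Antisense genes lie opposite Hoxa3, Hoxb2 and Hoxb3.

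Factors of the anterior brain had the opposite pattern. Otx2, a factor of forebrain and midbrain, was at 24.4, 23.6, 19.9 and 23.1 CPM in AdAC direct and at most 0.033 CPM in AGES. Emx2, a cortical factor, was at 3.86 to 5.54 CPM in AGES and 20.3 to 24.1 CPM in AdAC direct (log2 -2.26, SE 0.12). Of the 14 forebrain factors 10 were lower, 2 higher and 2 not called, with a median of -2.60. Meis2 had the largest rise, at 65.6 to 103 against 37.1 to 40.2 CPM. Of the 12 tested factors of midbrain and hindbrain 6 were higher and 2 lower. Gbx2, which sets the front of the hindbrain, was at 9.79, 11.6, 15 and 13.3 CPM in AGES and at 0 to 0.14 CPM in AdAC direct (log2 7.40, SE 0.49), and En1 was at 9.18 to 15.1 against 0.21 to 0.53 CPM. Irx3 was not called, and En2 was called higher by a small margin (18.6 ± 1.0 against 14.3 ± 0.9 CPM, log2 0.38, edgeR adjusted p = 0.0363), which was lost with DESeq2's size factors and with 5 of the 8 libraries left out in turn. The cerebellum, where adult glia express En2, was removed before isolation of AdAC direct.

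**Figure D4:**
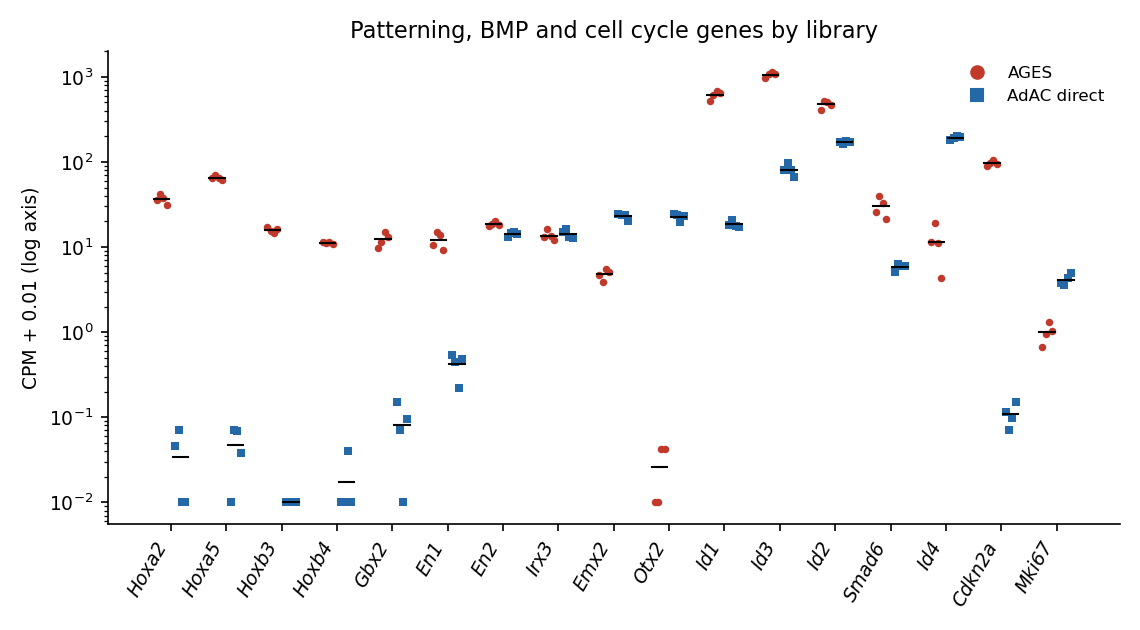
CPM plus 0.01 (log axis) of patterning factors, BMP pathway genes and cell cycle genes in each AGES (circles) and AdAC direct (squares) library, with black bars for the means; points at 0.01 have no count. Hox genes, Gbx2, En1 and Cdkn2a stand at 9 to 106 CPM in AGES and under 1 CPM in AdAC direct, Otx2 the other way round, and Id4 is opposite to Id1, Id2 and Id3.

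Imprinted growth genes were lower for 11 of 16 and higher for 4. Nnat (neuronatin), a small membrane protein expressed from the paternal copy, was at 0.62, 0.90, 0.77 and 1.15 CPM in AGES and at 988, 889, 846 and 889 CPM in AdAC direct (log2 -10.02, SE 0.18, edgeR adjusted p = 4.15e-24), and at a mean of 0.94 CPM in NSCs. Igf2, the fetal growth factor, was at 3.86 to 5.32 against 20.9 to 35.2 CPM. Dlk1, a membrane ligand, was at 3.46 to 6.04 CPM in AdAC direct and at most 0.039 CPM in AGES. Mest was higher, at 71.4, 77.4, 36.8 and 41.9 CPM against 8.87 to 15.5 CPM (log2 2.27, SE 0.23), and its NSC mean was 997 CPM. The groups did not overlap for these 4 genes.

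Genes of motile cilia, the beating hairs of ependymal cells, had the lowest median of the 39 function lists, at -7.53 over 38 genes, of which 37 were lower and 1 was not called. Their sum was 4200 to 4600 CPM in AdAC direct and 202 to 254 CPM in AGES. Hydin, a protein of the central pair of the axoneme, was at 214, 202, 210 and 215 CPM in AdAC direct and at 0.20, 0.20, 0.29 and 0.36 CPM in AGES (log2 -9.62, SE 0.31, edgeR adjusted p = 1.08e-18). Dnah5 and Dnah9, heavy chains of the outer dynein arm, were at 148 to 173 against 0.064 to 0.55 CPM and at 195 to 215 against 0.63 to 0.99 CPM. Spag17 was at 56.7 to 70.6 CPM in AdAC direct and at most 0.096 CPM in AGES. The transcription factors above these genes were not lost to the same degree. Foxj1, the factor that starts the motile cilium programme, was at 64.7, 58.1, 52.1 and 76.8 CPM in AGES and at 396 to 438 CPM in AdAC direct (log2 -2.73, SE 0.16). Rfx3, which acts in all cilia, was at 54.5 to 71.6 against 72.4 to 86.3 CPM (log2 -0.31, edgeR adjusted p = 0.0087), and not called without AdAC direct replicate 4. The ependymal markers moved with the list: all 8 were lower in AGES, and Tmem212 and Sntn, which are not in the list, were at 134 to 151 and 21.7 to 34.1 CPM in AdAC direct against at most 0.165 CPM in AGES; Foxj1 and Dynlrb2 are in both lists. The part of ependymal cells in the cilium genes of AdAC direct was not tested.

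The letters GTTGCC, which make up a side of the X-box bound by RFX factors, were searched on both strands in the same promoters. They occurred in 13.8% of the 25748 genes and in 13 of 32 motile cilium genes with a promoter in the table (40.6%), beside 4 of 16 BMP pathway genes (25%) and 2 of 22 Hox genes (9.09%). The 4 lower members with the largest fitted fold change among those with the letters before the start site are shown as above, with 1 match of each in capitals, written GGCAAC where the word lies on the other strand. Tekt1 and Spag16 also hold ggcaac in lower case, a further match.
Drc1 (chr5:30281333-30281392, plus strand): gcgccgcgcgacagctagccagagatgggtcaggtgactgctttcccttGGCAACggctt
Hydin (chr8:110266917-110266976, plus strand): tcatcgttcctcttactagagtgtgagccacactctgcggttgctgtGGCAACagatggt
Tekt1 (chr11:72361883-72361942, minus strand): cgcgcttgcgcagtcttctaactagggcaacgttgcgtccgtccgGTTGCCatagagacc
Spag16 (chr1:69826840-69826899, plus strand): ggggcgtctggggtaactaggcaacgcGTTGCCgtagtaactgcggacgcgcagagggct
The matches in capitals began 11, 13, 15 and 103 bases before the start site. They are a description of letters and say nothing of binding in these cells.

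Lists of genes known from reactive astrocytes differed in direction. Of 12 genes shared by reactive states, Gfap and Vim among them, 7 were higher and 4 lower, with a median of 2.97 and a sum, mostly Gfap, of 57200 to 67700 CPM in AGES and 614 to 675 CPM in AdAC direct. Of 13 tested neuroinflammatory (A1) genes 3 were higher and 7 lower (median -1.18), and of 11 tested ischemia-type (A2) genes 3 were higher and 7 lower (median -2.05). C3, the complement component used as the A1 marker, was at 1142, 965, 1647 and 2733 CPM in AGES and at 35.0 to 43.7 CPM in AdAC direct (log2 5.37, SE 0.32, edgeR adjusted p = 3.74e-13). Serping1, an inhibitor of complement, was at 44.9 to 58.0 against 6.24 to 8.66 CPM. Amigo2, Srgn and H2-D1 of the same A1 list were lower, the last at 4.00 to 13.8 against 61.0 to 82.8 CPM. Lcn2, a secreted lipocalin, spread widely among the cultures, at 9.09, 4.03, 29.5 and 142 CPM, and was at 0.18 to 0.46 CPM in AdAC direct (log2 7.2, SE 1.04), falling to 5.50 without AGES replicate 4. Serpina3n, a protease inhibitor, was at 112, 118, 420 and 764 CPM against 15.1 to 25.7 CPM (log2 4.13, SE 0.46), and at 3.42 without the same replicate. AGES replicates 3 and 4 were above replicates 1 and 2 for C3, Lcn2, Serpina3n, Vim, Ctsb, Hk2 and Ccnd1, genes picked after their values were seen, and the labels name no batch that sets them apart. Clcf1, a cytokine of the A2 list, was at 10.8 to 35.4 against 1.72 to 2.53 CPM (log2 3.3, SE 0.33). Osmr, Hspb1 and S100a10 were near the floor in AGES, with Hspb1 at 13.7 to 21.8 and S100a10 at 13.5 to 16.9 CPM in AdAC direct.

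Interferon and MHC class I genes were lower for 14 of 26 and higher for 6. Ifih1, a sensor of viral RNA, was at 7.35 to 10.1 CPM in AdAC direct and at most 0.033 CPM in AGES, and Tlr3, another such sensor, was at 66.8 to 94.6 CPM against at most 0.064 CPM. B2m, the light chain of MHC class I, was higher, at 145, 121, 198 and 197 CPM against 46.7 to 50.6 CPM (log2 1.75, SE 0.18), while the heavy chain H2-D1 was lower, as given above.

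Genes that respond within minutes to stimulation, and to dissociation of tissue, were lower in AGES for 14 of 27, higher for 6 and not called for 7. Fos was at 47.8, 45.7, 75.7 and 104 CPM in AGES and at 468, 698, 511 and 437 CPM in AdAC direct (log2 -2.95, SE 0.34). Egr1 was at 19.5 to 30.9 against 209 to 328 CPM, and Arc, a neuronal gene of this kind, at 0.12 to 0.26 against 75.4 to 116 CPM. AdAC direct replicate 2 was the highest of its group for Fos, Jun, Egr1, Nr4a1, Atf3 and Arc. Fosl2 was higher, at 74.6, 90.3, 208 and 140 CPM against 4.54 to 5.73 CPM, and Atf3 at 17 to 52.1 against 10.3 to 15.6 CPM. Of the 12 heat shock genes 8 were lower. Hspa1a and Hspa1b, which share nearly all of their sequence, were highest in AdAC direct replicate 3, at 33.9 and 56.2 CPM. AdAC direct cells had gone through enzymatic dissociation and AGES had not, and the part of that step was not tested.

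The clock genes were lower for 11 of 17 (median -1.13). Dbp and Hlf, outputs of the clock, were at 30.5 to 44.1 against 199 to 257 CPM (log2 -2.58, SE 0.21) and at 7.93 to 14.3 against 76.8 to 85.5 CPM (log2 -2.85, SE 0.15), and Per3 was at 46.6 to 59.6 against 154 to 193 CPM. Per1 was not called, at 92.9 to 127 against 98.7 to 141 CPM. Npas2, a partner of BMAL1, was at 22.2 to 29.4 CPM in AdAC direct and at most 0.099 CPM in AGES. The hour at which cells were taken was not among the labels.

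Matrix genes parted by kind. Fn1, fibronectin, was at 3256, 3456, 5409 and 2650 CPM in AGES and at 36.4 to 47.4 CPM in AdAC direct (log2 6.52, SE 0.33, edgeR adjusted p = 1.32e-14), and Ncan, neurocan of the developing brain, at 3130 to 4933 against 355 to 470 CPM (log2 3.29, SE 0.17). Bcan, brevican of the adult brain, was lower, at 1143 to 1472 against 2224 to 3009 CPM (log2 -0.96, SE 0.14). Hapln2, a link protein of nodes of Ranvier made by oligodendrocytes, was at 0.31 to 0.72 against 438 to 477 CPM, as the oligodendrocyte markers were. Of 17 genes of this list 7 were higher and 8 lower, and its median changed sign with scaling by library size (0.08 against -0.06) and without AGES replicate 2 (-0.20). The collagens were lower for 32 of 40 tested genes and higher for 4. Col1a1, a gene of fibroblasts, was at 0.67 to 0.96 against 31.9 to 48.3 CPM, and Col6a5 at most 0.066 against 59.2 to 72.4 CPM. Col6a1 was higher, at 78.5, 83.0, 198 and 63.5 CPM against 1.64 to 3.97 CPM (log2 5.36, SE 0.51). All 10 mural and fibroblast markers, of which Col1a1 and Col3a1 are collagens, moved with the lower collagens, and their part in them was not tested.

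Integrins and cytoskeletal genes were mostly higher. Itgb1, the common beta chain that binds fibronectin and laminin, was at 1507, 1499, 2394 and 1654 CPM in AGES and at 128 to 157 CPM in AdAC direct (log2 3.69, SE 0.15, edgeR adjusted p = 8.87e-18). Its partner Itga6, a laminin receptor, was at 443 to 570 against 87.3 to 101 CPM, while Itga7, another laminin receptor, was lower, at 4.24 to 23.4 against 79.2 to 97.4 CPM (log2 -2.95, and -3.58 without AGES replicate 4). AGES had been plated on laminin. Lamb2 was at 443 to 542 against 132 to 167 CPM, and Lama2 at 0.20 to 0.22 against 96.0 to 109 CPM. Of 20 laminins and integrins 11 were higher and 7 lower, and of 15 contractile and YAP target genes 9 were higher and 4 lower. Cnn2, a calponin, was at 55.2 to 82.0 against 5.10 to 6.25 CPM, and Ccn2, a YAP target, at 8.72 to 32.2 against 3.08 to 4.22 CPM. Acta2 and Tagln, genes of smooth muscle, were lower, at 3.75 to 8 against 56.9 to 75.9 CPM and 2.04 to 3.32 against 11.3 to 16.0 CPM, as were the mural markers.

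**Figure D5:**
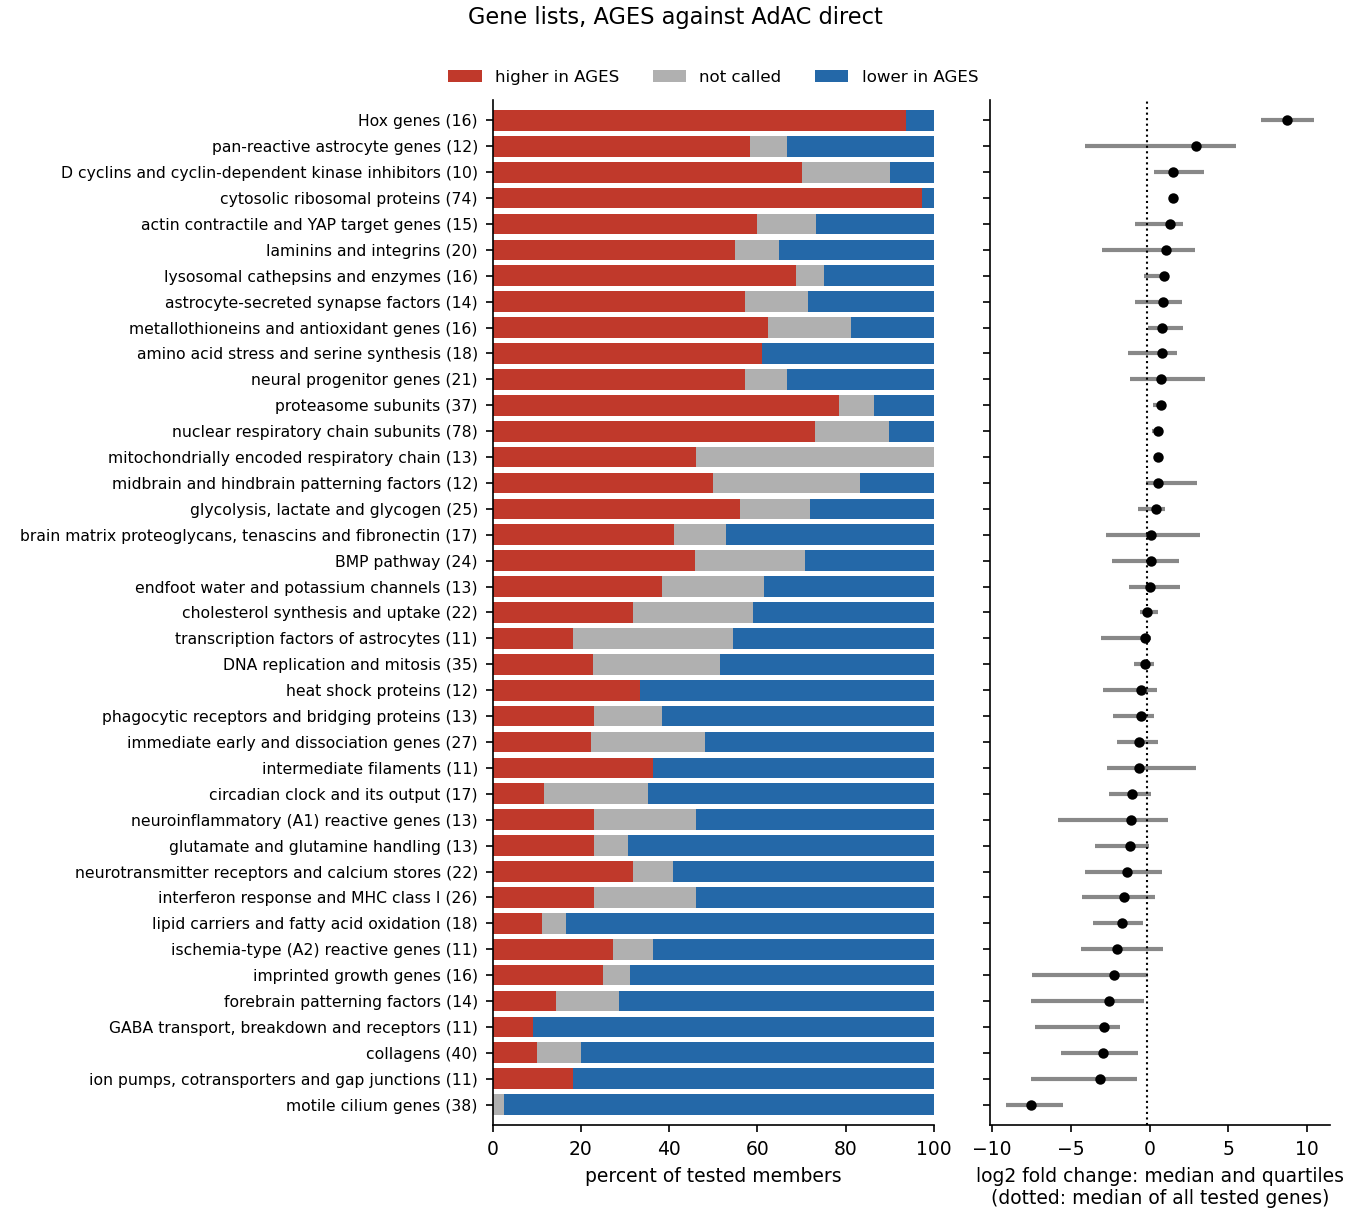
For each of 39 gene lists, the percent of tested members higher (red), lower (blue) or not called (grey) in AGES (left; number of tested genes in brackets), and the median and quartiles of the log2 fold change (right; the dotted line is the median of all tested genes, -0.18). Ribosomal proteins have 72 of 74 tested members higher, and motile cilium genes have 37 of 38 lower. Hox genes have 15 of 16 tested members higher, a count that had to follow the groups through which they passed the filter.

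Among called protein-coding genes without overlap that reached 10 CPM in the group where they were higher, the 15 with the highest fitted log2 fold change included 6 Hox genes (Hoxb3, Hoxb2, Hoxa3, Hoxa5, Hoxa2, Hoxb4), Myh8, Cdkn2a, Wdr72, Muc15, Trim63, Rtn4rl2, Gata4 and Igfbp3. Igfbp3, a carrier of insulin-like growth factors, was at 1140, 973, 1759 and 951 CPM in AGES and at 2.32 to 3.76 CPM in AdAC direct (log2 8.68, SE 0.28), with 1199 CPM in NSCs. Gata4, a factor of heart and endoderm, was even among the cultures, at 14 to 15.3 CPM, with 17.9 CPM in NSCs. Myh8, a myosin of developing muscle, was uneven, at 34.4, 76.1, 11 and 1.65 CPM, with a mean of 0.39 CPM in NSCs. Trim63, a muscle ubiquitin ligase (14.7 to 26.8 CPM), and Muc15, a mucin (11.4 to 22.9 CPM), had NSC means of 0.0084 and 0.016 CPM. Wdr72 was at 7.24 to 22.8 CPM and Rtn4rl2, a receptor of the Nogo family, at 16.7 to 29.5 CPM in AGES. For all of these but Cdkn2a and Igfbp3, AdAC direct was at the floor.

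The 15 genes with the lowest fitted fold change were all at the floor in AGES. Shroom1, Sntn, Cabcoco1, Cckbr, Lrrc34, Nipal2, Dpy19l2, Ribc2, C330018D20Rik, Klhdc9 and Npy2r had no count in any AGES library. Of these, Shroom1, an actin-binding protein, was at 28 to 29.4 CPM in AdAC direct, at least 288-fold higher than the AGES floor, Cckbr, a receptor of cholecystokinin, at 19.8 to 23.2 CPM (at least 218.5-fold), and Npy2r, a receptor of neuropeptide Y, at 9.05 to 11.7 CPM. The remaining 4 had single counts in AGES. Evi2a was at 101 to 130 CPM in AdAC direct, Larp6 at 76.3 to 89.5 CPM, Tlr3 at 66.8 to 94.6 CPM and Dsg2, a desmoglein of cell junctions, at 45.8 to 59.9 CPM.

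Nnt, the mitochondrial transhydrogenase, was taken as a marker of substrain, since C57BL/6J mice carry a deletion in it that C57BL/6N mice lack. It was at 104, 97.3, 102 and 91.3 CPM in AGES and at 25.2, 26.0, 25.3 and 29.6 CPM in AdAC direct (log2 1.89, SE 0.07, edgeR adjusted p = 4.35e-18), with a mean of 100.3 CPM in NSCs. The groups did not overlap.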

How the data were processed

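From stranded, paired-end poly(A) libraries the authors aligned reads to GRCm38 with STAR 2.7.3a and assigned them to exons of Gencode vM12 genes with featureCounts. The deposited values are whole counts per gene, without normalization or filtering. The options named for featureCounts (exons grouped by gene) include none for strand; 75 of the 261 genes examined singly have an annotated gene on the opposite strand. Positions came from Gencode vM21.

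All 24 libraries (6 groups of 4) were fitted in edgeR 4.0.16 (R 4.3.3) with filterByExpr (19691 genes), TMM scaling and the robust quasi-likelihood model. AGES minus AdAC direct was tested two-sided as a contrast, with Benjamini-Hochberg adjustment over all 19691 genes and a threshold of 0.05, and calls were counted outside X and Y. Standard errors were derived from each gene's F statistic, as |log2 fold change| over its root. CPM, scaled by TMM, are given as mean ± SD (n = 4). Chance counting error is the only error covered by the floor of 3 counts. TPM used exon lengths of Gencode vM21 and served as a description.

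The genes and lists were chosen with earlier results of these data known. The genes named are a chosen set of single genes, the called member of each list with the highest and the lowest log2 fold change, the first 15 in each direction by log2 fold change and the first 10 by CPM difference among called protein-coding genes whose libraries did not overlap and whose mean reached 10 CPM where they were higher, and the 15 highest by TPM. Bmpr1a, Bmpr2, Drc1, Tekt1, Spag16 and Rpl29 were named after their values were seen.

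The 16 alternatives were DESeq2 1.42.0 size factors, library size only, no filter, at least 10 counts in each of the 8 libraries, the DESeq2 Wald test, a fit of the 8 libraries with and without a replicate block, a log2 threshold of 1, and leaving out each of the 8 libraries. No 2 replicates agreed within sampling noise. Some genes that the naming rule selects are not reported here.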

Additional observations from a re-analysis of the deposited data

Results flagged for a closer look

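In 27 of 444 groups of 4 libraries examined for a single gene, the highest or lowest library lay apart from the other 3 by more than Dixon's 95% critical value; chance gives about 1 in 20 of such groups. All values are CPM, followed by the range of the other 3 libraries. AGES replicate 1 lay above the others for mt-Cytb (4980, others 4330 to 4400), mt-Nd5 (3650, others 3010 to 3090) and Cdk1 (8.15, others 6.12 to 6.29). AGES replicate 2 lay above the others for Rps28 (219, others 202 to 205). AGES replicate 2 lay below the others for Aplp1 (8.47, others 12 to 12.3), Axl (334, others 373 to 380) and Folr1 (7.22, others 10.8 to 11.2). AGES replicate 3 lay above the others for Col6a1 (198, others 63.5 to 83). AGES replicate 4 lay above the others for Asns (44.7, others 25.4 to 28.2) and Vcan (44.5, others 15.3 to 19). AGES replicate 4 lay below the others for Ttr (0.757, others 1.01 to 1.04). AdAC direct replicate 2 lay below the others for Id2 (164, others 173 to 174), Mog (568, others 627 to 636) and Nanog (1.7, others 2.26 to 2.31). AdAC direct replicate 3 lay above the others for Hspa1a (33.9, others 19.3 to 19.8), Hspa1b (56.2, others 30.3 to 34.1) and Syt1 (3.6, others 2.55 to 2.71). AdAC direct replicate 3 lay below the others for Tpm2 (4.49, others 5.22 to 5.29). AdAC direct replicate 4 lay above the others for Grm3 (311, others 283 to 287), Srgn (2.79, others 1.75 to 1.88), Itgb8 (200, others 155 to 160), Nnt (29.6, others 25.2 to 26) and Tlr3 (94.6, others 66.8 to 70.9). AdAC direct replicate 4 lay below the others for Adra1a (16.2, others 18.6 to 18.9), Emx2 (20.3, others 23.5 to 24.1), Mbp (4110, others 4650 to 4760) and Cdh5 (6.26, others 7.37 to 7.42). Hspa1a and Hspa1b share nearly all of their sequence, so their 2 values are not separate.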

How the results depend on the processing

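Of the 6722 higher and 8514 lower genes, the counts were 6466 and 8703 with DESeq2's size factors, 5945 and 9170 with scaling by library size, 7172 and 9563 without a filter, 4963 and 5146 with at least 10 counts in each of the 8 libraries (12584 genes tested, which removes genes absent from a group), 6502 and 8733 with the DESeq2 Wald test, 6595 and 7719 in a fit of the 8 libraries, and 3544 and 6394 past a log2 fold change of 1. Leaving out 1 library gave 6541 to 6702 higher and 8321 to 8490 lower genes. Scaling by library size moved the middle of all log2 fold changes from -0.18 to -0.32. A replicate block gave 6400 higher and 7578 lower genes; deviations of same-numbered libraries correlated at -0.044, 0.032, -0.001 and -0.012, so the numbers share only a name. The minimum of 10 counts tested no Hox gene. With it, 19 of the 20 motile cilium genes still tested and 15 of the 22 collagens still tested were called lower. The sign changed for 8 genes that were not called in the fit of all libraries. Hepacam was at -0.03 with size factors and with DESeq2, -0.127 with library size, -0.118 with the count minimum, and from -0.061 to 0.113 when 1 library was left out. Sox9 was at -0.035 and -0.024, Bmpr1b at -0.02 and -0.012, Cdkn1a at -0.026 and -0.011, and S100b at -0.08 and -0.063, with library size and with the count minimum. With 1 library left out, Cdkn1a ranged from -0.017 to 0.313 (-0.005 without AGES replicate 3), and S100b from -0.276 to 0.235; with the replicate block S100b was at -0.003. Itgb8 was at 0.013 without a filter, 0.017 in the fit of 8 libraries, 0.02 with the replicate block, and from -0.067 to 0.106 with 1 library left out. In the same fits Sparcl1 ranged from -0.152 to 0.041 and Cst3 from -0.19 to 0.036. The cause was not tested. Depth limits genes near the floor, and all libraries of a group share their source, so effects of age, culture and substrain cannot be told apart.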

Other observations

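Median log2 fold changes differed by chromosome. Among the numbered chromosomes they lay between -0.47 on chromosome 12 (630 genes tested, 336 lower) and 0.14 on chromosome 18 (520 genes tested, 200 lower), with -0.43 on chromosome 5 and -0.35 on chromosome 10; these are descriptions, and no test was made.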
